A study of Mus musculus with 25 samples.

Results

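D4M and HCmel12 are the pair of murine melanoma lines that the study grouped as poor colonizers of the liver, and the RNA-seq libraries of both are compared here with each other. They were chosen by the cell line label alone, which gave 5 libraries of D4M and 5 of HCmel12, or 10 of the 25 libraries and 2 of the 5 lines of the series. No measured value entered that rule, but the pair was chosen with earlier results of these data known. The study asked which expression traits of cultured melanoma lines go with growth in the liver, and it treated this pair as a group. The other 3 lines (B16F10 luc2, WT31 and RET) entered the fit and serve here to place a level.

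D4M, the Dartmouth murine mutant malignant melanoma, came from mice with the allele Braf CA and the transgene Tyr::CreER, whose tyrosinase promoter drives an inducible Cre recombinase that activates mutant Braf. HCmel12 was grown out of a primary tumour of HGF-CDK4(R24C) mice, which carry an Hgf transgene and a Cdk4 allele with the R24C change. The promoter of the Hgf transgene is not named in the sources used here. D4M was kept in Advanced DMEM/F-12 with 5% FCS, and HCmel12 in RPMI with 10% FCS, Hepes, ß-mercaptoethanol, pyruvate and non-essential amino acids. Glutamine, penicillin and streptomycin were in both media. Both were untreated pure cultures harvested at 50% confluency. Each genotype is represented by a single line in a medium of its own, so that line, genotype and medium cannot be told apart in any difference given here.

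Melanocytes descend from the neural crest, and the factors Mitf and Sox10 keep up their pigment programme, in which enzymes of the tyrosinase family make melanin inside melanosomes. Melanoma cells can lose that programme and take on a mesenchymal or crest-like state, which is usually described by low Mitf, high Axl, AP-1 factors such as Fosl1, and the output of extracellular matrix. Braf acts in the MAP kinase pathway, Hgf is the ligand of the receptor Met, and Cdk4 drives entry into the cell cycle.

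The 10 libraries held between 24199083 and 25679885 estimated counts. Levels are given as CPM, counts per 1000000 counts of the library after scaling by TMM factors, with the libraries of a line always in the order of replicates 1 to 5. Differences are log2 values of D4M minus HCmel12 with the standard error (SE) of the voom and limma fit, and a gene was called higher or lower when its Benjamini-Hochberg adjusted p over the 15247 tested genes was below 0.05. A count of 3 (0.12 to 0.138 CPM) was taken as the smallest detectable amount. Where every library of a line was at 0 the fold was computed against that floor, averaged over the line, and is given as a lower bound. Where a line held 1 to 3 counts at most, the ratio is given with its 95% counting interval, and both cover counting error only. The labels call the libraries biological replicates without saying how the cultures were separated, and p-values measure only the spread between them.

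Libraries correlated with r between 0.9832 and 0.9868 within D4M, between 0.9785 and 0.988 within HCmel12, and between 0.7228 and 0.7553 across the lines (log2 values of all tested genes). A library of each line stood apart, by different measures. D4M replicate 1 held genes of the other 4 lines at between 0.193% and 0.368% of their level there, while the remaining D4M libraries held them at between 0.0156% and 0.082%. Few of these genes were particular to 1 line. Those read in 1 other line alone, 1 to 4 per line, stood in D4M replicate 1 at 0% (B16F10 luc2), 0.00559% (WT31), 0.0132% (HCmel12) and 0.366% (RET). The HCmel12 libraries held genes of B16F10 luc2 and of RET at between 0.124% and 0.202%. HCmel12 replicate 4 lay apart from its 4 sister libraries in 659 of 10072 genes above 5 CPM, against 36 to 85 genes for the other HCmel12 libraries. By that second measure D4M replicate 1 was apart in 38 of 10158 genes, fewer than D4M replicates 2 (163) and 3 (196). The estimated counts share reads between transcripts of like sequence. More than 15% of the 31-base words of Fosl1 (54.5%), Mt2 (58.1%), Cxcl11 (42.2%), Mcm7 (33.4%), H2-K1 (22.8%), Ccnd1 (22.3%), Cavin3 (21.1%), Nrn1 (21.1%), Mc1r (20.1%), Cdk4 (19.5%), Mest (22%) and Copg2 (17.6%) also occur in other genes, and their values are less certain for it. Gstp1, Ftl1, Vim, S100a4 and Gpnmb, among other genes named below, were not checked for shared words. The strand setting of the counting is not given in the sources used here, and antisense partners cannot be told apart. Results that rest on either library are given below with and without it.

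The lines differed in most of the measured transcriptome. Of the 15247 genes tested, 5617 (36.8%) were higher in D4M and 5437 (35.7%) were lower, so that 72.5% were called. With a difference of at least 2-fold, 2736 (17.9%) were higher and 2668 (17.5%) lower, together 35.4%. The median log2 difference was 0.00 and the median SE 0.12. The CPM ranges of the 5 and 5 libraries did not overlap for 8860 genes (58.1%). Among the 10 pairs of lines, the number of genes called with at least a 2-fold difference ran from 2175 (B16F10 luc2 with RET) to 6069 (B16F10 luc2 with D4M), and the pair D4M with HCmel12 held 5404. With counts scaled by library size alone, all differences shifted by -0.18 and the share of called genes that were higher in D4M went from 50.8% to 39.6%.

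The differences included many genes read in every library of one line and at or below the floor in the other. Among protein-coding genes, 467 had over 10 counts in every D4M library and at most 3 in every HCmel12 library, and 198 had the reverse pattern. At a log2 difference of at least 5 there were 779 genes higher in D4M and 452 lower. The lists below are described by the same counts, and a share near 36.8% higher and 35.7% lower is the share of any tested gene. In 521 tested genes every library of a line was at 0. Setting these to their bound left 2714 genes higher and 2615 lower by at least 2-fold and moved no list median by more than 0.19.

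**Figure D1:**
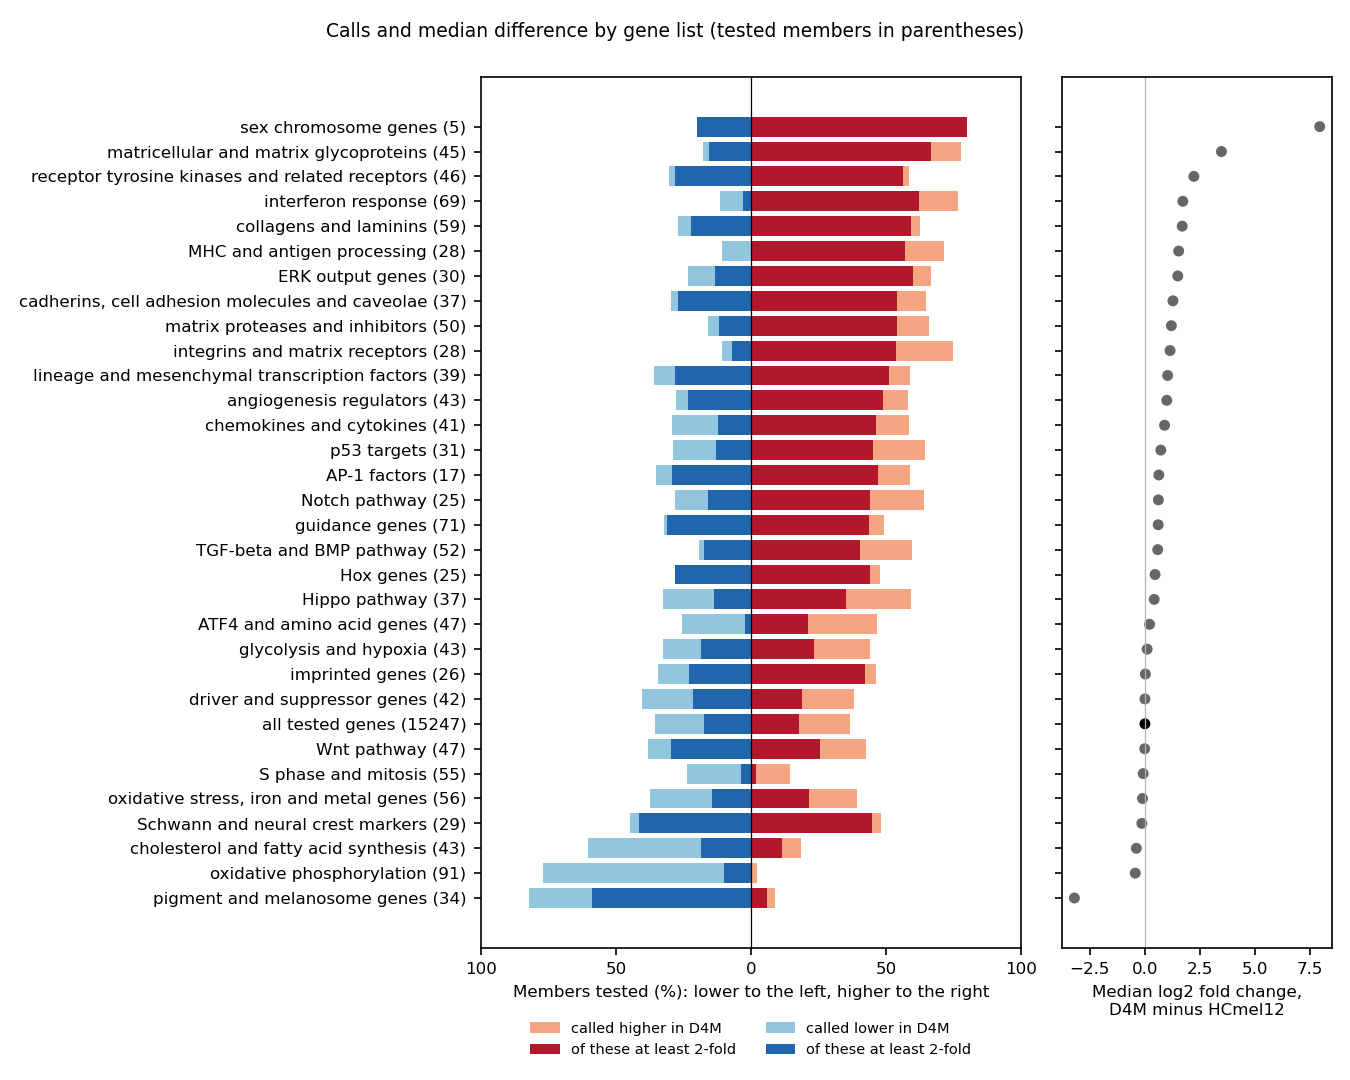
Left, percent of the tested members of each gene list that were called lower (bars to the left) or higher (bars to the right) in D4M than in HCmel12, with members past 2-fold in the darker shade. Right, median log2 difference of each list, D4M minus HCmel12, with all 15247 tested genes in black; matrix, interferon and receptor tyrosine kinase lists lie to the right, pigment genes far to the left, and S phase and mitosis genes close to 0.

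The genes altered in the mouse models were examined first. Hgf, on chromosome 5 (chr5:16553495-16620152, GRCm38, plus strand), was read at 84, 96.1, 103, 113 and 78 CPM in HCmel12 and at 1.98, 3.74, 1.56, 2.82 and 3.07 CPM in D4M. All HCmel12 libraries were far above all D4M libraries (log2 difference -5.21, SE 0.18, adjusted p = 3.2e-19, limma), and the other 3 lines held at most 0.00759 CPM on average. Its receptor gene Met stood at 1093, 943, 987, 1310 and 1037 CPM in HCmel12 and at 118, 125, 99, 129 and 133 CPM in D4M (-3.15, SE 0.15, adjusted p = 2.1e-16). Ligand and receptor were thus both higher in HCmel12. Cdk4 did not differ beyond its spread, at 578, 552, 574, 588 and 560 CPM in D4M and 585, 596, 595, 579 and 602 CPM in HCmel12 (-0.05, SE 0.045, adjusted p = 0.3), with overlapping ranges. With library sizes alone Cdk4 was called lower in D4M, by -0.23. Gene totals carry no information on the Cdk4 or Braf codon changes.

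Braf was lower in D4M, at 26.5 ± 1.06 CPM against 70.1 ± 4.18 CPM (SD, n = 5 each; -1.40, adjusted p = 1.7e-15). The receptor gene Kit, which melanocytes need for survival, reached 1 count at most in any D4M library and 122, 117, 133, 138 and 90.1 CPM in HCmel12, a ratio of 6771 with a 95% counting interval of 1874 to 55910. The tumour suppressor locus Cdkn2a (chr4:89274471-89294653, minus strand) held 3 counts or fewer in every D4M library and 181, 205, 188, 218 and 221 CPM in HCmel12 (ratio 3300, interval 1601 to 8207). Its neighbour Cdkn2b was at 0 in all 5 D4M libraries and at 11.4 ± 2.73 CPM in HCmel12, which makes it at least 85.5-fold higher there. The 2 genes lie side by side and were read in HCmel12 alone of this pair.

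The genes Klhl9, Mtap and Dmrta1 around this locus were chosen after the values had been seen. Klhl9 was close in both lines (112 and 99.5 CPM, 0.17), Mtap was higher in D4M (1009 ± 54 against 246 ± 38.8 CPM; 2.05, adjusted p = 8.3e-18), and Dmrta1 was also higher in D4M (8.81 against 0.627 CPM; 3.84). Genes on both sides of Cdkn2a and Cdkn2b were thus read in D4M. Of the 42 driver and suppressor genes tested, 16 were higher, 17 lower and 9 not called, with a median of 0.00. Cell cycle partners of Cdk4 differed. Ccnd1, its cyclin, was at 2381 ± 233 CPM in D4M and 424 ± 131 CPM in HCmel12 (2.54, adjusted p = 1.4e-14), and the related kinase Cdk6 at 60.6 ± 6.34 against 1.79 ± 0.377 CPM (5.08, adjusted p = 1.2e-16). Myc, a growth-promoting factor, was lower in D4M (95.1 ± 20.1 against 259 ± 74.1 CPM; -1.43, adjusted p = 3.1e-07).

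The pigment programme was read in HCmel12 and was close to the floor in D4M. Of 34 pigment and melanosome genes tested, 28 were lower in D4M, 3 higher and 3 not called, and 20 were lower by at least 2-fold, with a median log2 difference of -3.20. Without D4M replicate 1 and HCmel12 replicate 4 there were 27 lower and 3 higher, with a median of -3.21. HCmel12 replicate 4 was the highest library of its line in 27 of the 34, beside 2751 of 10072 tested genes above 5 CPM. The part of either library beyond these values was not tested. Tyrosinase (Tyr), the rate-limiting enzyme of melanin synthesis, stood at 0.806, 0.046, 0, 0 and 0.172 CPM in D4M and at 8.59, 9.13, 8.32, 30.1 and 6.31 CPM in HCmel12. The highest D4M value came from replicate 1 and the highest HCmel12 value from replicate 4, and the ranges did not overlap (-6.89, SE 0.92, adjusted p = 2.2e-07; -7.29 without both libraries). HCmel12 itself was low in Tyr beside the other 3 lines, whose means ran from 219 to 3982 CPM.

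Tyrp1 and Dct, which act downstream of tyrosinase, were abundant in HCmel12. Tyrp1 was read at 8362, 7202, 8240, 9717 and 8198 CPM there, within the range of the other 3 line means (3767 to 13970 CPM), and at 27, 0.0444, 0, 0 and 2.85 CPM in D4M. Dct was read at 2601, 2348, 2552, 5048 and 2475 CPM in HCmel12 and at 10.7, 0.0958, 0.134, 0.0906 and 1.19 CPM in D4M. For both genes the D4M mean was set by replicate 1. The log2 difference of Tyrp1 was -14.75 with all libraries and -16.27 without the 2 that stood apart, and that of Dct was -12.54 and -13.42. On the length-scaled TPM scale, Tyrp1 ranked 3 among nuclear protein-coding genes of HCmel12 (5727 ± 428 TPM, n = 5) and 11617 in D4M (0.478 TPM, n = 4).

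The melanosome proteins Pmel and Mlana and the transporter Slc45a2 followed the same pattern. With library sizes alone Mlana was lower in D4M by -10.52. Pmel stood at 779 ± 232 CPM in HCmel12 and 2.08 ± 3.75 CPM in D4M (-10.02, adjusted p = 8.6e-13; -10.73 without both libraries), and Slc45a2 at 317 ± 85.7 against 0.219 ± 0.419 CPM (-11.91, adjusted p = 3.7e-13; -12.64 without both). The melanocortin receptor Mc1r was at 71.6 ± 12.8 CPM in HCmel12 and at 18 counts or fewer in D4M (-9.59, adjusted p = 2.7e-10; -10.27 without both). Replicate 1 was the highest D4M library for Pmel, Mlana, Slc45a2 and Mc1r. Members with a general role in lysosome-related organelles behaved otherwise: Cd63 was equal (823 and 825 CPM), and the trafficking subunits Bloc1s3, Hps6 and Bloc1s6 were higher in D4M, the last at 83.6 ± 6.45 against 24.8 ± 1.71 CPM (1.75, adjusted p = 6.1e-19). Gpnmb, a melanosome glycoprotein also made by macrophages, kept 220 CPM in D4M against 2689 CPM in HCmel12 (-3.64). The largest differences were those of the melanocyte-specific members, and the defining melanocyte markers of D4M were near 0.

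The promoters of the 3 melanin enzymes are shown because they make up the enzyme group of the list and carry the M-box letters TCATGTG, an extended E-box known as a Mitf recognition motif. Each is the 250 bases before the transcript start in RefSeq (GRCm38.p6), 5′ to 3′ on the gene's strand, with every TCATGTG match on either strand in capitals (CACATGA is its reverse complement).
Tyr (chr7:87493513-87493762, minus strand): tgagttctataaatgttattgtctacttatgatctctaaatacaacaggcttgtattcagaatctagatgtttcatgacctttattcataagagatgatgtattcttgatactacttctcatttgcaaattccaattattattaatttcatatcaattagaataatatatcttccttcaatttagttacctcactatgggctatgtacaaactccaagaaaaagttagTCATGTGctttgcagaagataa
Tyrp1 (chr4:80833963-80834212, plus strand): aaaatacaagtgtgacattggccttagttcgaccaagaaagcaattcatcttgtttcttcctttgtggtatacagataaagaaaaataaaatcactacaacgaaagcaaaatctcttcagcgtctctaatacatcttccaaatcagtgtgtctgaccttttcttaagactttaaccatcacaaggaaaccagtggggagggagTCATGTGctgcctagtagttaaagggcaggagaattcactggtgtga
Dct (chr14:118052247-118052496, minus strand): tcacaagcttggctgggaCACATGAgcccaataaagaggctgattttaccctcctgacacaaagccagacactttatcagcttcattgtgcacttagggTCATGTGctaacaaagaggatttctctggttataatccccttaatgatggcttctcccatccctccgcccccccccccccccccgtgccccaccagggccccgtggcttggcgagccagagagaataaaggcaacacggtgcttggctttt
The match began 22 bases before the start in Tyr and 47 bases before it in Tyrp1, and the 2 matches in Dct began 232 and 151 bases before it. In the table of 27025 genes with a RefSeq promoter, 4.31% held TCATGTG in this window on either strand, and of the 10987 tested genes that could be matched 2.7% did. Of 28 matched pigment genes 8 did (28.6%), namely Dct, Hps1, Mc1r, Slc24a5, Trpm1, Tspan10, Tyr and Tyrp1. All 8 were lower in D4M, as were 23 of the 28. Over all matched genes called at least 2-fold lower in D4M 73 of 1846 held it (3.95%), and over those at least 2-fold higher 49 of 1890 (2.59%). The plain E-box CACGTG was found in 9 of the 28 (32.1%) and in 11.5% of the matched tested genes. These matches are letters in a window and were not tested as binding sites.

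The factors that sustain the melanocyte lineage were low in D4M as well. Mitf stood at 630, 772, 534, 781 and 512 CPM in HCmel12 and at 6.99, 5.91, 6.19, 6.26 and 6.56 CPM in D4M (-6.64, SE 0.23, adjusted p = 3e-19). Unlike its pigment targets, the small amount of Mitf in D4M was even across all 5 libraries and was not set by replicate 1. Sox10 stood at 818, 908, 861, 775 and 769 CPM in HCmel12 and at 2.07, 0.133, 0.0445, 0 and 0.511 CPM in D4M (-12.08, SE 0.54, adjusted p = 9.4e-17; -12.94 without both libraries). Pax3, which acts upstream of Mitf, kept 21 ± 1.05 CPM in D4M against 219 ± 20.2 CPM (-3.38, adjusted p = 5.8e-23). Of the 10 melanocyte factors tested, 7 were lower in D4M and 2 higher, with a median of -3.00. Tfap2a was lower by -0.27 with overlapping ranges (adjusted p = 0.016).

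D4M carried mesenchymal and neural crest factors. Twist1, a driver of mesenchymal transition, was at 78.6, 99.2, 74.5, 70.6 and 72.4 CPM in D4M and at 0 in all 5 HCmel12 libraries, and so was at least 654-fold higher in D4M. Prrx1, a factor of limb and craniofacial mesenchyme, was at 372 ± 28 CPM against 0.121 ± 0.0742 CPM (11.52, SE 0.34, adjusted p = 1.7e-20). Zeb1 was at 107 ± 7.58 CPM in D4M, and in HCmel12 at 0.161, 0.159, 0.365, 1.61 and 0.163 CPM, where replicate 4 was the high one (8.35, adjusted p = 2.8e-17; 8.97 without both libraries). Zeb2, its relative that melanocytes also use, went the other way (99.8 ± 9.99 against 168 ± 15 CPM; -0.75, adjusted p = 1e-08). Of 13 mesenchymal factors tested, 11 were higher in D4M and 2 lower, with a median of 2.98.

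The crest factors were mixed. Sox2, a stem cell factor, was at 237, 276, 271, 257 and 200 CPM in D4M and at 3 counts or fewer in each HCmel12 library (ratio 4388, interval 2130 to 10913). Sox9 was at 71.8 ± 10.1 against 0.533 ± 0.434 CPM (7.44, adjusted p = 1.8e-14), and Tfap2b at 265 ± 22.3 against 130 ± 29.2 CPM (1.05, adjusted p = 8.6e-10). Sox11 was the exception at high level (68.4 ± 6.56 CPM in HCmel12 against 0.0812 ± 0.0889 CPM; -9.80, adjusted p = 1.4e-14). Across the 12 crest factors 7 were higher and 4 lower, with a median of 0.78. Over all 39 lineage and mesenchymal factors tested, 23 were higher in D4M and 14 lower, 31 of them by at least 2-fold.

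**Figure D2:**
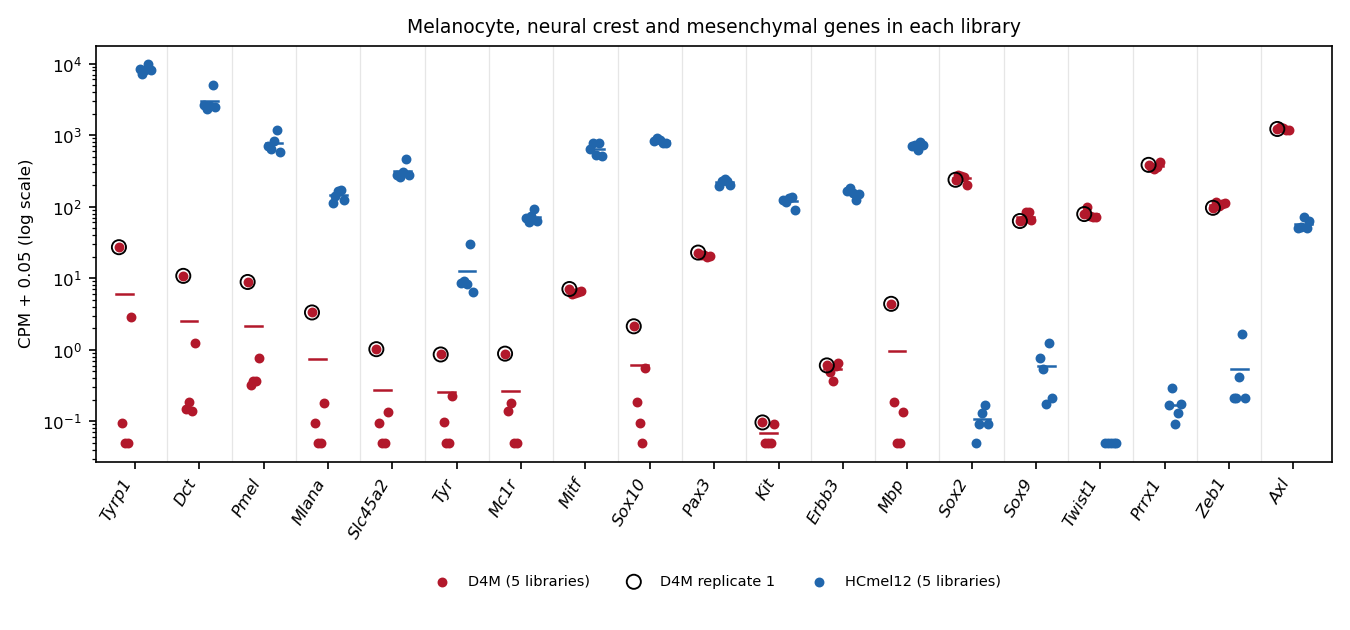
CPM of pigment, lineage and mesenchymal genes in the 5 D4M and 5 HCmel12 libraries, on a log axis after adding 0.05 CPM; each point is a library, the short lines are line means, and D4M replicate 1 is circled. Pigment genes and Sox10 lie near the floor in D4M apart from replicate 1, while Twist1, Prrx1, Zeb1, Sox2 and Sox9 lie near the floor in HCmel12.

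Receptor tyrosine kinases and their ligands were mostly higher in D4M. Of 46 tested, 27 were higher and 14 lower, 26 and 13 of them by at least 2-fold, with a median of 2.22. Axl, the receptor that marks the dedifferentiated state of melanoma, stood at 1216, 1284, 1249, 1162 and 1183 CPM in D4M and at 50.4, 52.1, 70.7, 50 and 63.6 CPM in HCmel12 (4.42, SE 0.17, adjusted p = 5.7e-18). The ranges were far apart. Of the 8 receptors linked to dedifferentiation 6 were higher, among them Pdgfra (59.5 ± 10.9 against 0.557 ± 0.169 CPM; 6.72, adjusted p = 3.4e-17) and Pdgfrb (47.4 ± 14.5 CPM against 3 counts or fewer; adjusted p = 3.6e-12). Egfr was read at 12.5 ± 2.3 CPM in D4M and at 1 count in a single HCmel12 library (ratio 1532, interval 279 to 61418). Ngfr, a crest receptor counted in the same set, was lower in D4M (1.91 ± 1.06 against 21.5 ± 7.45 CPM; -3.56, adjusted p = 1.4e-05).

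Of the 5 receptors linked to melanocytes, 4 were lower in D4M, Kit and Met as given above and Erbb3 at 0.487 ± 0.113 against 154 ± 20.1 CPM (-8.26, adjusted p = 4.2e-17). Ligands of the EGF receptor family went both ways. Ereg was at 226, 328, 205, 236 and 188 CPM in D4M and at 0 in all HCmel12 libraries (at least 1957-fold higher), and Areg at 199 ± 20.2 against 0.0727 ± 0.0779 CPM (11.47, adjusted p = 2.1e-18). Nrg1, the ligand of Erbb3, was at 24.1 ± 5.82 CPM in D4M and at 2 counts or fewer in HCmel12 (ratio 746, interval 291 to 2739), so that ligand and receptor were read in different lines of the pair. Egf and Tgfa, of the same family, were lower in D4M. Of 17 ligands 12 were higher in D4M and 3 lower, with a median of 4.69.

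AP-1 factors went both ways, while the transcriptional output of ERK, the last kinase of the MAP kinase pathway, leaned to D4M with exceptions. Fosl1 stood at 262, 247, 238, 197 and 188 CPM in D4M and at 0.0803, 0.147, 0.479, 0.127 and 0.269 CPM in HCmel12 (10.10, SE 0.4, adjusted p = 5.4e-18), and Jun at 204 ± 50.6 against 29.3 ± 2.7 CPM (2.77, adjusted p = 1.8e-15). Fos itself was lower in D4M, at 3.83 ± 2.04 against 32 ± 8.51 CPM (-3.21, adjusted p = 1.5e-11). Of the 17 AP-1 factors tested 10 were higher and 6 lower. Of 30 ERK output genes 20 were higher and 7 lower, 18 and 4 of them by at least 2-fold, with a median of 1.49. Spry4, a feedback inhibitor, was higher in D4M (176 ± 50 against 35.4 ± 6.44 CPM; 2.27, adjusted p = 3.5e-10), whereas the ERK phosphatase Dusp6 was lower (165 ± 61.1 against 365 ± 36.5 CPM; -1.21, adjusted p = 2.4e-07). Of the 4 dual-specificity phosphatases 3 were lower in D4M, the exception being Dusp5. The Sprouty and Spred genes had 5 of 6 higher and 0 lower, the Ets factors 2 of 3 higher and 1 lower. Among the other members 12 of 17 were higher and 3 lower. Kcnn4, a potassium channel in the same list, was at 350 ± 43.6 against 0.46 ± 0.134 CPM (9.55, adjusted p = 1.4e-19).

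Extracellular matrix genes were mostly higher in D4M. Osteopontin (Spp1), a secreted ligand of integrins and Cd44, stood at 19090, 18362, 19461, 17828 and 16469 CPM in D4M and at 32.1, 48.1, 61.2, 32.1 and 41.3 CPM in HCmel12 (8.77, SE 0.19, adjusted p = 5.6e-23). No library of either line came near the other. By TPM it was the most abundant nuclear protein-coding gene of D4M (18975 ± 953 TPM, n = 4), and it ranked 2804 in HCmel12 (48.6 ± 15 TPM, n = 5). Igfbp3, which binds insulin-like growth factors, was at 5452, 4663, 5880, 5830 and 4657 CPM in D4M and at 2 counts or fewer in HCmel12, a ratio of 109308 (interval 50220 to 297857). The proteoglycan Bgn was at 1758 ± 113 against 0.0647 ± 0.0461 CPM, that is at 3 counts or fewer in HCmel12 (adjusted p = 2.9e-17), and tenascin C (Tnc) at 335 ± 29.5 against 0.525 ± 0.262 CPM (9.48, adjusted p = 1.5e-15).

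Of 45 matricellular and matrix glycoproteins tested, 35 were higher in D4M and 8 lower, with a median of 3.47, against 34 and 8 and a median of 3.10 without the 2 libraries that stood apart. On the log2(TPM + 1) scale, which shrinks low genes, the median was 1.18. Thbs2, an inhibitor of angiogenesis, was at 797 ± 38.6 against 19.3 ± 5.03 CPM (5.41, adjusted p = 2.1e-22), and Smoc2 at 292 ± 34.9 CPM against 0 in all HCmel12 libraries (at least 2415-fold higher in D4M). Sparc was abundant in both lines (4186 ± 346 and 1210 ± 142 CPM; 1.80, adjusted p = 3.9e-16). Fibronectin (Fn1) was closer still, at 1811, 2194, 2617, 1959 and 2052 CPM in D4M and 1074, 1140, 1805, 1375 and 1554 CPM in HCmel12. Its ranges just failed to overlap (0.63, SE 0.22, adjusted p = 0.011), and with library sizes alone the difference of 0.45 was not called. Fbln1 (12.1 ± 3.79 against 87.6 ± 12.6 CPM; -2.91, adjusted p = 5.6e-14), Fbln5 and Igfbp4 were lower in D4M.

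Of 59 collagens, laminins and related genes 37 were higher in D4M and 16 lower, with a median of 1.69. The fibrillar chains Col1a2 (354 ± 60.8 against 0.258 ± 0.134 CPM; 10.41, adjusted p = 1.9e-17) and Col3a1 (371, 651, 227, 491 and 622 CPM in D4M, 4 counts or fewer in HCmel12; 12.20, adjusted p = 1.6e-11) varied among the D4M libraries but were far from HCmel12. The beaded collagen VI was read as all of its main chains: Col6a1 at 406 ± 109 CPM, Col6a2 at 204 ± 52.4 CPM and Col6a3 at 773 ± 158 CPM in D4M. In HCmel12 Col6a2 was at 0 in every library, which makes it at least 1689-fold higher in D4M, and Col6a3 at 1 count or fewer (ratio 47918, interval 13265 to 395676). HCmel12 had the higher level of Col14a1 (15.9 ± 4.04 CPM, 3 counts or fewer in D4M) and of the laminin chain Lama3 (10.7 ± 4.18 against 0.228 ± 0.15 CPM; -5.53, adjusted p = 7.2e-11).

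**Figure D3:**
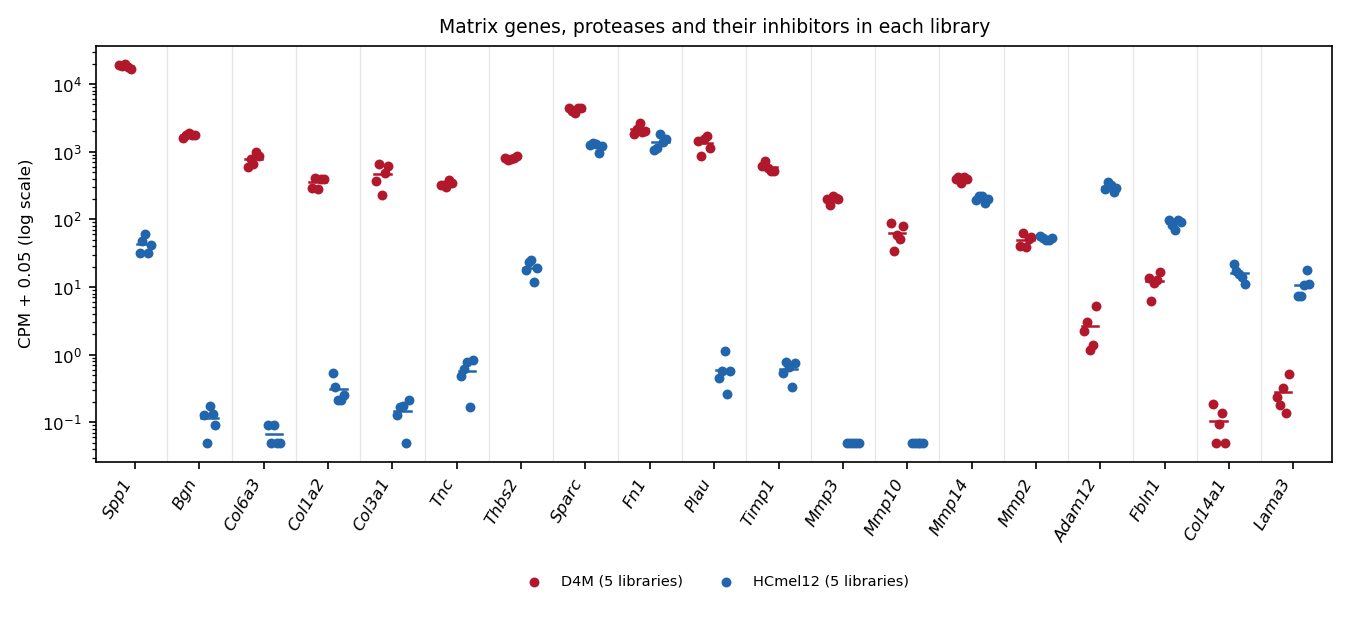
CPM of matrix and protease genes in the 5 D4M and 5 HCmel12 libraries, on a log axis after adding 0.05 CPM; points are libraries and short lines are line means. Spp1, Bgn, collagens, Plau, Timp1 and Mmp3 are separated by orders of magnitude, Sparc, Fn1 and Mmp14 by small steps, Mmp2 not at all, and Adam12, Fbln1, Col14a1 and Lama3 are the other way round.

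Proteases of the matrix and their inhibitors were higher in D4M together. Urokinase (Plau), which activates plasminogen, was at 1448, 855, 1549, 1694 and 1138 CPM in D4M and at 0.401, 0.518, 1.09, 0.209 and 0.529 CPM in HCmel12 (11.34, SE 0.48, adjusted p = 3e-17). The stromelysin Mmp3 was at 202, 161, 221, 207 and 197 CPM in D4M and Mmp10 at 87.1, 34.4, 57.8, 51.9 and 80 CPM, while all 5 HCmel12 libraries were at 0 for both. They were at least 1633-fold and 515-fold higher in D4M. The inhibitor Timp1 was at 588 ± 83.3 against 0.556 ± 0.178 CPM (10.05, adjusted p = 5.9e-21). Of 50 members tested, 33 were higher and 8 lower, with a median of 1.2, and 6 of the 7 genes of the plasminogen system were higher. Mmp2, the main gelatinase of mesenchymal cells, did not differ beyond its spread (50 ± 10.2 and 52.2 ± 3.5 CPM; -0.08, adjusted p = 0.5) but was called lower in D4M with library sizes alone (-0.26, adjusted p = 0.037), and Mmp14, which activates it, was 1.96-fold higher in D4M (adjusted p = 2.5e-13). Adam12, a membrane-bound metalloproteinase, was on the other side (300 ± 38.5 CPM in HCmel12 against 2.57 ± 1.66 CPM; -7.06, adjusted p = 3.9e-15).

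The promoters of 3 protease genes higher in D4M are shown because they hold the AP-1 letters TGANTCA, the recognition motif of Fos and Jun dimers. Plaur, the urokinase receptor (161 ± 33 against 14.9 ± 5.45 CPM; 3.48, adjusted p = 1.7e-15), was picked for this after its values were seen. Windows, build and strand are as for the melanin enzymes, and the capitals mark the TGANTCA match.
Mmp3 (chr9:7445572-7445821, plus strand): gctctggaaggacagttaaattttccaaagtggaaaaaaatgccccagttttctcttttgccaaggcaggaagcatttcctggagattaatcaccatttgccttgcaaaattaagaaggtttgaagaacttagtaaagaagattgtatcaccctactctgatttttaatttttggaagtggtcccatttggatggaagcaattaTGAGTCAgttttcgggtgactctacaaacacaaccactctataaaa
Mmp10 (chr9:7502092-7502341, plus strand): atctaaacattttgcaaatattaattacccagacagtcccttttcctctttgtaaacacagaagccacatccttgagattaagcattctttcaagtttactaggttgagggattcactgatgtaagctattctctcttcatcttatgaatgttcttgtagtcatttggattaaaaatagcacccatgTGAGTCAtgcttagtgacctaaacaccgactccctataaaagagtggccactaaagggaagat
Plaur (chr7:24462233-24462482, plus strand): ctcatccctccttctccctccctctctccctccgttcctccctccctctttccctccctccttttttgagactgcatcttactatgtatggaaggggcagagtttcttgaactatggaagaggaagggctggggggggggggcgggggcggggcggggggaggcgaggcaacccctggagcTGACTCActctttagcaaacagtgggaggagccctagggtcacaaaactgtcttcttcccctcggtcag
The match began 46, 63 and 69 bases before the start in Mmp3, Mmp10 and Plaur. TGANTCA reads nearly the same on both strands, and 8.97% of all genes with a RefSeq promoter and 6.42% of the matched tested genes held it in this window. Of 23 matched protease genes higher in D4M, 5 held it (21.7%; Adam19, Mmp10, Mmp3, Plaur and Serpinb2), as did 1 of 6 lower in D4M (16.7%; Mme) and 6 of all 34 matched protease genes tested (17.6%). Over all matched genes called at least 2-fold higher in D4M 220 of 1890 held it (11.6%), and over those at least 2-fold lower 125 of 1846 (6.77%). The window of Timp1 held no match.

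Receptors for this matrix were mostly higher in D4M too. Of 28 integrins and matrix receptors tested, 21 were higher and 3 lower, with a median of 1.14, and all 7 beta chains tested were higher. Itga3, a laminin receptor chain, was at 530, 482, 685, 471 and 469 CPM in D4M and at 5.54, 5.5, 6.04, 5.01 and 4.35 CPM in HCmel12 (6.63, SE 0.16, adjusted p = 2.3e-22). Itga2, a collagen receptor chain, was at 54.6 ± 11 against 1.78 ± 0.592 CPM (4.96, adjusted p = 9.1e-15), and Itgb3, which binds osteopontin, at 93.7 ± 15.6 against 14.7 ± 2.66 CPM (2.67, adjusted p = 1.8e-16). Itga4, the chain that pairs with Itgb1 to bind Vcam1, did not differ beyond its spread (92.2 ± 11 and 109 ± 25.8 CPM; -0.22, adjusted p = 0.16), though with library sizes alone it was called lower in D4M (-0.40, adjusted p = 0.015). Vcam1 itself was at 124 ± 18.4 CPM in D4M and 0.0889 ± 0.0446 CPM in HCmel12 (10.25, adjusted p = 2.2e-16). Itga9 was lower in D4M (0.754 ± 0.128 against 29.7 ± 6.9 CPM; -5.25, adjusted p = 2.3e-13).

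Among cadherins, E-cadherin (Cdh1) was low in both lines, at 0.342, 0.0444, 0.0891, 0.0888 and 0.128 CPM in D4M and 6.94, 4.7, 3.81, 15.2 and 5.65 CPM in HCmel12, where replicate 4 was the highest (-5.57, adjusted p = 3.1e-09). N-cadherin (Cdh2) was high in both, at 371 ± 25.8 and 238 ± 33.3 CPM (0.65, adjusted p = 4.2e-07). Cdh19, a cadherin of Schwann cells and melanocytes, was read in HCmel12 (75.8 ± 6.92 against 0.09 ± 0.092 CPM; -9.85, adjusted p = 1.1e-12). The genes for coat proteins of caveolae, small pits of the plasma membrane, had 8 of 9 tested genes higher in D4M and a median of 3.24. Cavin3 was at 210 ± 20.3 CPM in D4M and at 0 in all HCmel12 libraries (at least 1740-fold higher), Cavin1 at 598 ± 85.4 against 53 ± 3.37 CPM (3.49, adjusted p = 1.1e-21), and Cav1 at 777 ± 166 against 325 ± 86.7 CPM (1.27, adjusted p = 6e-10). Cav2, which lies beside Cav1 and Met on chromosome 6, was lower in D4M (181 against 403 CPM; -1.16). Over the 37 adhesion and caveolar genes 24 were higher and 11 lower, with a median of 1.27 (1.22 with genes at 0 set to their bound).

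D4M and a fibroblast share many of these genes, so that marker lists of other cell types were read beside them. Of 13 fibroblast and pericyte markers 8 were tested and 7 were higher in D4M, and their summed level lay between 915 and 1698 CPM in D4M and between 2.05 and 2.67 CPM in HCmel12. Col3a1 (472 CPM), Col1a2 (354 CPM), Cspg4 (223 CPM), Col1a1 (144 CPM), Pdgfra (59.5 CPM), Pdgfrb (47.4 CPM) and Acta2 (9.86 CPM) were the 7. Lum was at 0 in every D4M library, and Dcn (0.335 CPM), Dpt (0.161 CPM), Thy1 (0.547 CPM) and Rgs5 (0.106 CPM) were below 1 CPM. In bulk RNA, fewer cells of a type and less RNA per cell cannot be told apart. The 10 immune markers summed to between 72.8 and 109 CPM in D4M, of which Laptm5 held most (84.6 ± 13.6 against 0.242 ± 0.0417 CPM; 8.33, adjusted p = 7.3e-18), and Cd68 was also higher there (8.01 against 2.98 CPM; 1.19, adjusted p = 0.0017). Csf1r reached 0.55 CPM and Itgam 0.089 CPM in D4M, Lyz2 was lower in D4M (0.00852 against 0.533 CPM), and Ptprc, Cd3e, Adgre1 and Cd52 were at 3 counts or fewer in every library of both lines. Endothelial markers summed to between 64 and 75.9 CPM in HCmel12 and between 6.49 and 7.96 CPM in D4M, mostly Kdr and Egfl7 (37.1 ± 2.44 against 5.6 ± 0.559 CPM; -2.73, adjusted p = 1.4e-17), whereas Cdh5, Emcn and Cldn5 were at 0 in HCmel12. Keratinocyte markers reached 3.24 CPM in D4M and 15.4 CPM in HCmel12, where Cdh1 led them, and muscle markers 0.937 and 20.1 CPM, led by desmin (Des, 15 ± 3.32 CPM in HCmel12). The part of such cells in any difference was not tested.

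HCmel12 carried genes of Schwann cells, the glia that share a precursor with melanocytes. Myelin basic protein (Mbp) was at 692, 724, 614, 806 and 715 CPM in HCmel12 and at 4.32, 0.133, 0, 0 and 0.0852 CPM in D4M, where replicate 1 alone was above 1 CPM (-12.44, SE 0.67, adjusted p = 3.9e-15; -13.63 without both libraries). Kcnj10, a glial potassium channel, was at 42.8 ± 9.82 CPM and at 2 counts or fewer in D4M. Of 15 myelin and glial genes 11 were lower in D4M and 3 higher, with a median of -6.80, and of 14 crest and stem markers 11 were higher and 2 lower, with a median of 2.74. The same list thus split by role. Within the second set, Gfra1, a receptor of the growth factor GDNF, was at 238 against 4.36 CPM (5.77), and nestin (Nes) at 457 against 142 CPM (1.74).

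Guidance genes, which steer axons and migrating crest cells, were divided between the lines, with 35 of 71 higher in D4M and 23 lower, and a median of 0.60 (0.33 without HCmel12 replicate 2). Sema3a, a repellent ligand, was at 428 ± 27.6 CPM in D4M and 0.291 ± 0.178 CPM in HCmel12 (10.63, adjusted p = 6.6e-19), and its co-receptor Plxna4 at 132 ± 22.9 CPM against 2 counts or fewer (ratio 2335, interval 1134 to 5809). Sema3g (0.0967 ± 0.0724 against 51.5 ± 10.7 CPM; -9.07, adjusted p = 4.2e-14) and the ephrin receptor Epha3 (0.39 ± 0.248 against 35.6 ± 9.06 CPM; -6.70, adjusted p = 1.5e-10) were HCmel12 genes. The receptors for VEGF were exchanged. Flt1 was at 171, 189, 218, 200 and 221 CPM in D4M and at 3 counts or fewer in HCmel12, while Kdr was at 30.4, 34.2, 38.9, 25.3 and 26 CPM in HCmel12 and at 4 counts or fewer in D4M (adjusted p = 3.7e-16 and 2.7e-13; log2 difference of Kdr -8.45). Flt4 went with Kdr (-8.10, adjusted p = 5.3e-14). Vegfa was at 69.9 ± 8.45 CPM in D4M and at 26.6, 26.1, 32.2, 68.8 and 34.2 CPM in HCmel12, where replicate 4 alone reached the D4M range (0.99, adjusted p = 6.5e-06; 1.23 without both libraries). Of 43 angiogenesis regulators 25 were higher and 12 lower, with a median of 0.99.

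Antigen presentation and the interferon response were higher in D4M. Of 28 genes of the major histocompatibility complex (MHC) and antigen processing 20 were higher and 3 lower, with a median of 1.53, and 9 of 10 class I genes were higher. The class I heavy chain H2-K1 was at 157, 207, 158, 188 and 129 CPM in D4M and at 15.4, 17.1, 14.9, 50.4 and 25.4 CPM in HCmel12 (2.92, SE 0.21, adjusted p = 2e-12), and its light chain B2m at 1782 ± 169 against 619 ± 86.1 CPM (1.53, adjusted p = 3.8e-13). The peptide transporter Tap1 was at 25.5 ± 3.66 against 1.36 ± 1.02 CPM (4.43, adjusted p = 8.9e-15). HCmel12 replicate 4 was the highest of its line for each of these 3 genes. Without it and D4M replicate 1, 21 of the list were higher and 3 lower, with a median of 1.69. Class II genes were at or near the floor: H2-DMb1 was at 0.044 and 0.0402 CPM.

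Of 69 interferon response genes 53 were higher in D4M and 8 lower, with a median of 1.72 (56, 6 and 1.81 without the 2 libraries). Among the 43 effectors 35 were higher and 3 lower. Ifi44 varied within D4M, at 20.6, 10.3, 16.4, 40.2 and 33.9 CPM, and stood at 0.241, 0.0797, 0.0811, 1.17 and 0.203 CPM in HCmel12 (6.54, SE 0.75, adjusted p = 1.6e-08). D4M replicates 4 and 5 were the high ones, and this was also so for Trim30a (21.5, 18.1, 21, 40.5 and 29.5 CPM). The checkpoint ligand Cd274 was the main exception, at 3.15, 1.83, 2.25, 3.16 and 1.93 CPM in D4M and 29, 23.4, 19.4, 55.5 and 25.4 CPM in HCmel12 (-3.56, SE 0.32, adjusted p = 1.7e-10). It was called lower in D4M with and without replicate 4 of HCmel12.

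Chemokines went both ways. Ccl2, which attracts monocytes, was at 39.1, 47.2, 47.4, 40.6 and 38.6 CPM in D4M and at 0 in every HCmel12 library (at least 352-fold higher). The monocyte growth factors Csf1 (199 ± 31.6 against 41.3 ± 8.39 CPM; 2.28, adjusted p = 1.1e-15) and Il34 (43.3 ± 4.93 against 0.153 ± 0.0345 CPM; 7.98, adjusted p = 2.2e-16) were also higher in D4M. Cxcl10, an attractant of T cells, was higher in HCmel12, with 45.4, 46, 50.8, 22.5 and 45.6 CPM against 6.3 ± 1.23 CPM (-2.70, adjusted p = 1.9e-09), and here replicate 4 was the lowest. Most interferon-inducible genes went the other way, but Cxcl11 was on the same side as Cxcl10 (20.3 ± 2.11 CPM against 1 count at most in D4M). Cxcl1 was not tested, at 0.479 and 0.0728 CPM. Of 41 chemokines, cytokines and NF-kB genes 24 were higher in D4M and 12 lower, with a median of 0.89.

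HCmel12 replicate 4 differed from its sister libraries in stress and nutrient genes. It was the highest HCmel12 library in 38 of 41 genes of the ATF4 pathway, the response to a lack of amino acids, and in 2751 of 10072 tested genes above 5 CPM. Its median log2 excess over the mean of the other 4 was 0.54 in this pathway, where the median of all tested genes was -0.05. The stress factor Nupr1 was at 0.321, 0.319, 0.73, 20.5 and 0.732 CPM in HCmel12 and at 22.2, 21.4, 20.3, 28.9 and 35.8 CPM in D4M. Replicate 4 thus reached the level of D4M, and the log2 difference was 4.57 (adjusted p = 2.3e-08) with it and 5.65 without it. Asparagine synthetase (Asns), at 150, 150, 156, 349 and 159 CPM in HCmel12 against 110 ± 19.1 CPM in D4M, was lower in D4M by -0.74 with replicate 4 (adjusted p = 0.00088) and by -0.49 without it. The pro-apoptotic factor Ddit3 rested on this library: it was called lower in D4M (14.4 ± 2.99 CPM against 17.2, 13.3, 22.8, 69.1 and 17.9 CPM; -0.70, adjusted p = 0.042) but not without replicate 4 (-0.30, adjusted p = 0.17). Slc7a11, the cystine transporter, was higher in D4M either way (50.1 ± 12.3 against 3.84 ± 3.36 CPM; 4.03, adjusted p = 6.5e-09). Over 47 genes of the list 22 were higher in D4M and 12 lower, with a median of 0.21. Without HCmel12 replicate 4 these were 25, 9 and 0.37, without HCmel12 replicate 3 the median was 0.10, and with library sizes alone 15 were higher and 16 lower.

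Genes of glycolysis and hypoxia were split, with 19 of 43 higher in D4M, 14 lower and a median of 0.10 (22, 14 and 0.17 without HCmel12 replicate 4). The median was 0.06 without D4M replicate 3, HCmel12 replicate 2 or HCmel12 replicate 3, and -0.08 with library sizes alone. HCmel12 replicate 4 was the highest of its line in 21 of 35, beside 2751 of 10072 over all tested genes above 5 CPM. Ndrg1, a target of hypoxia factors, was at 46.3, 37.1, 32, 128 and 45.2 CPM in HCmel12 and 9.94 ± 1.35 CPM in D4M (-2.34, adjusted p = 2.1e-07; -2.06 without both libraries), and Aldoc, the brain form of aldolase, at 11.4, 11.1, 8.15, 48.7 and 18 CPM against 0.364 ± 0.152 CPM (-5.42, adjusted p = 3.8e-07; -4.87 without both). The proline hydroxylases Egln3 (132 ± 24 against 4.68 ± 1.18 CPM; 4.83, adjusted p = 1.1e-18) and P4ha2 (37 ± 2.84 against 2.54 ± 1.67 CPM; 4.06, adjusted p = 2.8e-15) were higher in D4M. Targets of the same pathway were therefore found on both sides.

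**Figure D4:**
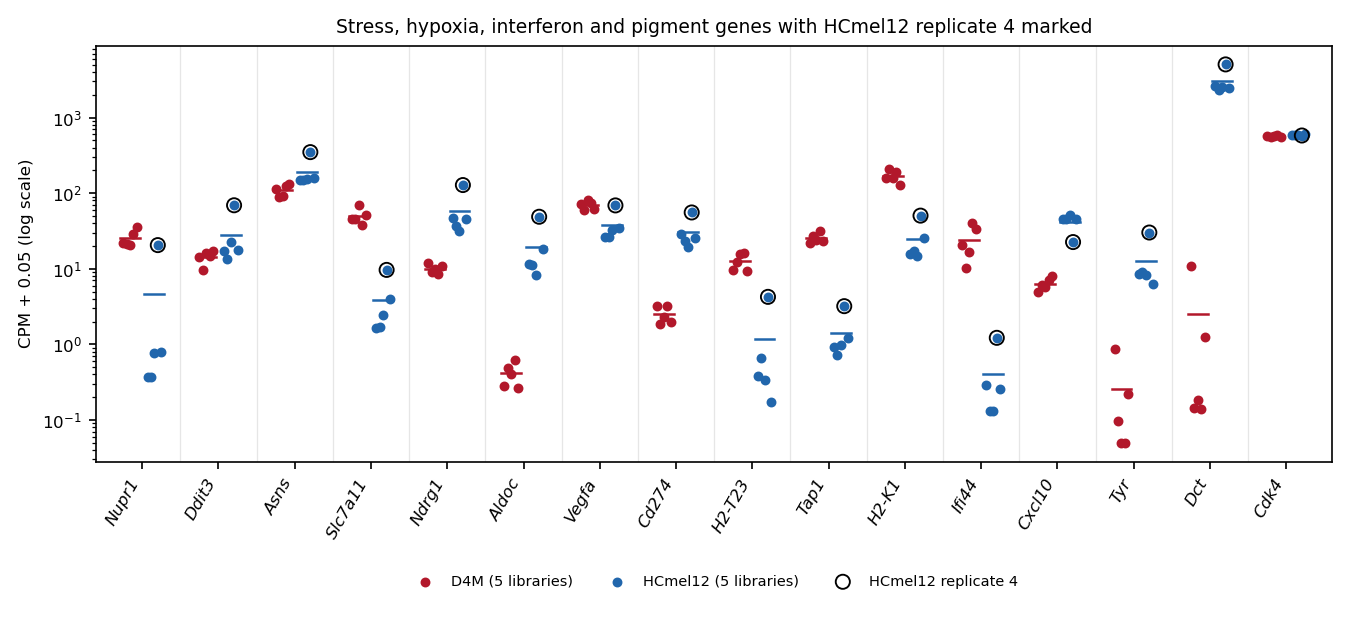
CPM of stress, hypoxia, interferon and pigment genes in the 5 D4M and 5 HCmel12 libraries, on a log axis after adding 0.05 CPM, with HCmel12 replicate 4 circled; points are libraries and short lines are line means. Replicate 4 lies above its sister libraries for Nupr1, Ddit3, Asns, Ndrg1, Aldoc, Vegfa and Cd274, below them for Cxcl10, and close to them for Cdk4.

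Most nuclear-encoded subunits of oxidative phosphorylation were lower in D4M, the majority by small amounts. Of 78 nuclear-encoded subunits tested 70 were lower in D4M and 1 higher, with a median of -0.47, while 12 of the 13 mitochondrially encoded ones were not called. This held without the 2 libraries that stood apart (3 higher and 69 lower of all 91, median -0.42) and with library sizes alone (1 and 77, median -0.62), where all genes shifted by -0.18. Only 9 members were lower by at least 2-fold. Ndufa4, a subunit of cytochrome c oxidase, led them, at 30.9, 35.8, 30.6, 32.9 and 31.1 CPM in D4M and 466, 462, 410, 446 and 424 CPM in HCmel12 (-3.78, SE 0.059, adjusted p = 8.5e-26). The complex I subunits Ndufb2 (-1.93, adjusted p = 6.6e-18) and Ndufa5 (-1.61, adjusted p = 1.7e-17) came next among the members above 5 CPM, and Ndufa8 was the one higher in D4M (0.84, adjusted p = 3.9e-14). Of the mitochondrially encoded members mt-Cytb was called (0.39, adjusted p = 0.043), with overlapping ranges, but not with library sizes alone (0.22, adjusted p = 0.25).

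Cholesterol synthesis was lower in D4M as well. Of 20 enzymes of the pathway 17 were lower, 1 higher and 2 not called, with a median of -0.85. The exporter Abca1, which moves cholesterol out of the cell, went the other way (206 ± 24.1 against 21.1 ± 12.1 CPM; 3.45, adjusted p = 1.3e-13). Of 11 fatty acid genes 5 were lower and 1 higher. The media of the lines differed in serum and in base, and the part of this in lipid genes cannot be told apart from that of the line.

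Genes of oxidative stress, iron and metal were balanced, with 22 of 56 higher and 21 lower, and a median of -0.11 (-0.19 without HCmel12 replicate 4, -0.17 without HCmel12 replicate 3). Nqo1, a classical target of NRF2, was at 122, 181, 200, 51.8 and 70.8 CPM in D4M and at 0, 0.199, 0.405, 0.283 and 0.692 CPM in HCmel12 (9.04, SE 1.1, adjusted p = 2.3e-08). The D4M libraries spread widely, with replicates 4 and 5 the lowest. Hmox1, another NRF2 target, was lower in D4M (39.2 against 79 CPM; -1.01), and the ferritin light chain Ftl1 too (2046 against 3297 CPM; -0.69). The metallothioneins lay close together: Mt1 was called lower in D4M (268 ± 42 against 358 ± 40.9 CPM; -0.42, adjusted p = 0.013) with overlapping ranges, and Mt2 was not called (-0.36, adjusted p = 0.076) except with library sizes alone (-0.54, adjusted p = 0.0083).

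Cell cycle genes had the lowest share of called members of all lists. Of 55 genes of S phase and mitosis 8 were higher in D4M, 13 lower and 34 not called, so that 38.2% were called where 72.5% of all genes were, and 3 passed 2-fold. The proliferation marker Mki67 was at 364, 362, 341, 358 and 423 CPM in D4M and 291, 284, 396, 294 and 290 CPM in HCmel12 (0.26, SE 0.17, adjusted p = 0.17). The helicase subunit Mcm7 was the outstanding exception, at 204 ± 13 against 775 ± 97 CPM (-1.92, adjusted p = 5e-18). The median of the list was -0.08, or -0.14 without HCmel12 replicate 4, and with library sizes alone 27 were lower and 4 higher. Targets of p53 were higher in D4M in 20 of 31 cases and lower in 9, with a median of 0.72. The inhibitor Cdkn1a was at 338 ± 66.3 against 32.3 ± 8.83 CPM (3.42, adjusted p = 3.3e-16), within the range of the other 3 line means (187 to 360 CPM), and Ccng1 at 545 ± 26.5 against 33.1 ± 1.69 CPM (4.04, adjusted p = 2.6e-21). It was HCmel12 that lay below every other line for both. Trp53 itself did not differ beyond its spread (250 ± 13.8 and 229 ± 26.1 CPM; 0.13, adjusted p = 0.089).

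Among signalling pathways, TGF-beta and BMP genes leaned to D4M (31 of 52 higher, 10 lower, median 0.58) and Wnt genes did not lean (20 of 47 higher, 18 lower, median -0.01, or 0.14 without D4M replicate 4). Bmp2, a bone morphogenetic protein, was at 576, 609, 635, 527 and 480 CPM in D4M and at 0 in every HCmel12 library (at least 4675-fold higher), and its antagonist Grem1 at 863 ± 107 CPM against 2 counts or fewer (ratio 35431, interval 12133 to 171942). Agonist and antagonist were thus read in the same line. The activin chain Inhba was at 105 ± 11.7 CPM against 0 (at least 869-fold). The receptor gene Acvrl1 was on the side of HCmel12 (3.32 ± 0.8 against 68.6 ± 10.1 CPM; -4.38, adjusted p = 1.2e-15). Wnt7b was at 53.5 ± 21.3 CPM in D4M and at 0 in HCmel12 (at least 443-fold higher), whereas Nkd2, an inhibitor of the pathway, was at 1.41 ± 0.528 against 52.8 ± 13.1 CPM (-5.23, adjusted p = 2.4e-13). Of 25 Notch genes 16 were higher and 7 lower, among them the ligand Jag1 (99.1 ± 8.58 against 1.9 ± 0.323 CPM; 5.71, adjusted p = 2.1e-16). Of 37 Hippo genes 22 were higher and 12 lower, with Tead4 at 61.7 ± 4.81 against 7.88 ± 1.03 CPM (2.97, adjusted p = 7.1e-17).

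Genes of position and parental origin differed in level. Hox genes keep a record of where along the body a cell arose. Hoxd13, which marks the distal limb and the genital region, was at 45.4, 40.1, 38, 42 and 36.7 CPM in HCmel12 and at 1 count or fewer in D4M (ratio 2284, interval 632 to 18856). Hoxb7 was at 22.5 ± 1.62 CPM in D4M and at 0 in HCmel12 (at least 186-fold higher), and Hoxd9 at 10.6 ± 0.787 CPM against 0 (at least 87.9-fold). Of 25 Hox genes tested 12 were higher and 7 lower, with a median of 0.46, or 0.27 with genes at 0 set to their bound 0.14 without D4M replicate 1 and 0.70 without D4M replicate 2 or 4. Of 26 imprinted genes 12 were higher and 9 lower. Grb10, an adaptor that restrains growth signals, was at 336 ± 32.6 against 0.137 ± 0.0972 CPM (11.49, adjusted p = 5.5e-18), and Plagl1, a zinc finger factor, at 5.77 ± 1.05 against 642 ± 73.6 CPM (-6.80, adjusted p = 5.9e-21). Among sex chromosome genes, Xist, the RNA that silences an X chromosome, was at 208 ± 35.7 CPM in HCmel12 and at 2 counts or fewer in D4M, and Ddx3y of the Y chromosome at 59 ± 6 CPM in D4M and at 2 counts or fewer in HCmel12.

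Several genes that the study examined across its 5 lines were low in both members of this pair. Kazn, St6galnac3 and Lmx1b, the last not named in the study's text, stayed at 3.04 counts or fewer in every library and were not called. Glrb, the glycine receptor beta chain, was at 5.03 ± 0.932 against 0.15 ± 0.131 CPM (5.21, adjusted p = 5.5e-12), where the other lines held 181 to 344 CPM. Unc5c, a netrin receptor, was at 0.827, 0.0444, 0, 0 and 0.0852 CPM in D4M and at 0.482, 0.717, 1.22, 0.283 and 0.325 CPM in HCmel12. The ranges overlapped through D4M replicate 1 (-2.80, adjusted p = 0.00032; -3.85 without both libraries). Tenm3, a teneurin, was 11.2-fold higher in D4M (471 ± 53.4 against 42 ± 6.62 CPM; adjusted p = 2.5e-22), as was, by 7.96-fold, the surface protein Ly6e (adjusted p = 6.8e-19). Msx1, a crest factor, was at 22.7 ± 4.89 CPM in D4M and at 2 counts or fewer in HCmel12 (ratio 936, interval 320 to 4538). Beyond the lists, the largest differences among genes above 50 CPM included Crabp1, a binding protein of retinoic acid (1085 ± 165 CPM in D4M and 0 in HCmel12, at least 8970-fold), Nrn1 (374 ± 57.8 CPM and 0, at least 3096-fold), and in HCmel12 Cntfr, the receptor of ciliary neurotrophic factor (270 ± 13.5 against 0.0811 ± 0.114 CPM; -12.05, adjusted p = 9.4e-17), and Ptgds, a prostaglandin synthase (249 ± 108 against 0.107 ± 0.139 CPM; -11.64, adjusted p = 1.3e-10).

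Part of the differences followed position on the chromosomes. Over 9160 protein-coding genes with a mean of at least 10 CPM, medians were taken in windows of 20 Mb with at least 20 genes, which was done after the values had been seen and carries no test. Of 135 windows 119 had a median between -0.3 and 0.3, 7 were at -0.5 or lower and 2 at 0.5 or higher. Among the 7, chr1:1-20000000 was at -0.55, chr1:60000001-80000000 at -0.57 and chr4:60000001-80000000 at -0.64. The 4 lowest lay on chromosomes 1, 5 and 6: the median was -1.20 over 68 genes in chr1:120000001-140000000, -1.16 over 73 genes in chr5:140000001-160000000, -1.15 over 34 genes in chr6:1-20000000 and -1.32 over 64 genes in chr6:20000001-40000000. In these 4 windows 57, 61, 25 and 55 genes were lower in D4M and 8, 9, 9 and 8 higher. Over all 9160 genes 3218 were lower and 3794 higher, with a median of 0.05. The shift was broad and not set by a few genes.

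A comparison with the mean of the other 3 lines placed these windows. On chromosomes 1 and 5 HCmel12 was above those lines (medians of 1.08 and 1.22) and D4M level with them (0.03 and -0.03), while at the start of chromosome 6 the medians were 0.59 and 0.73 for HCmel12 and -0.57 and -0.55 for D4M. There the lines differed: against WT31 alone HCmel12 stood at 1.09 and 1.26 and D4M at -0.02 and -0.00, against RET HCmel12 stood at 0.41 and 0.33 and D4M at -0.65 and -0.87, and against B16F10 luc2 HCmel12 stood at 0.24 and 0.49 and D4M at -0.82 and -0.66. The only 2 windows of 0.5 or more were chr10:40000001-60000000 (0.76 over 40 genes, with HCmel12 at -0.74 against the other lines) and the end of chromosome 7 (0.50 over 42 genes). Of the genes named above, Met, Braf, Cav2, Ndufa4, Ndufa5, Ndufb2, Asns, Mest and Copg2 lie in the 2 windows of chromosome 6 and were lower in D4M, and Cav1, Col1a2 and Plxna4 lie there too and were higher. Flt1, higher in D4M, lies in the window of chromosome 5, and Ccnd1, also higher in D4M, in that at the end of chromosome 7. In chr1:60000001-80000000 Pax3 was lower in D4M and Fn1 higher. Tfap2b in chr1:1-20000000 and Tnc in chr4:60000001-80000000 were higher in D4M. Copy number was not measured here.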

How the data were processed

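RNA was measured by bulk sequencing in 25 libraries of 5 murine melanoma lines, of which the 5 of D4M and 5 of HCmel12 are compared here. Per the submitters' processing notes, the authors trimmed reads with Trim Galore 0.6.4, and the deposited values are estimated counts per gene from kallisto 0.4.6, not normalized. The study's methods give another version number for kallisto. Gene identifiers were matched to GENCODE M21. The authors also deposited TPM per gene, scaled for length and depth. The TPM of D4M replicate 1 are not used here, so that D4M has 4 TPM libraries.

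Estimated counts were rounded to whole numbers for the edgeR quasi-likelihood and DESeq2 tests. Genes were kept by edgeR's filterByExpr, scaled by TMM factors and fitted with voom and limma as 1 mean per line over all 25 libraries, and p-values were adjusted by Benjamini and Hochberg over all tested genes (R 4.3.3, limma 3.58.1, edgeR 4.0.16). Alternatives were the edgeR quasi-likelihood test, DESeq2 1.42.0, log2(TPM + 1) and log2(TPM + 0.1), other scalings and filters, only the 10 libraries, each library left out, and the replicate number as a block. The fits were tested on simulated data. Totals were 24199083 to 25679885 estimated counts, and the precision of low genes is limited by the floor of 3 counts.

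Named genes were a core set, the 12 highest and 12 lowest called log2 differences among genes with a mean of at least 50 CPM in the higher line and no overlap, and the 3 highest and 3 lowest called members of each list with a mean of at least 5 CPM in the higher line. Other genes, in the lists or beside them, are named for their role and were chosen after their values were seen. The pair, lists and rule were chosen with earlier results of these data known. Promoter sequences were taken from RefSeq (GRCm38.p6). Some genes, alleles and list members are not reported here.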

Additional observations from a re-analysis of the deposited data

Results flagged for a closer look

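For genes named in the report, 262 groups of the 5 libraries of a line were examined for a library far from the other 4, by Dixon's test at the 95% level. These groups do not cover every named gene in both lines. Chance flags about 1 in 20 groups of 5, or 13 of the 262 groups, and 41 values were set apart. Of these 21 were in HCmel12 replicate 4 and 10 in D4M replicate 1, with no other library above 2.

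In HCmel12 replicate 4, pigment genes were high, with Tyr at 30.1 CPM (6.31 to 9.13 in the other 4 libraries), Dct at 5048 CPM (2348 to 2601) and Slc45a2 at 468 CPM (262 to 305). Stress and hypoxia genes were high too, with Nupr1 at 20.5 CPM (0.319 to 0.732), Ddit3 at 69.1 CPM (13.3 to 22.8), Asns at 349 CPM (150 to 159), Ndrg1 at 128 CPM (32 to 46.3), Aldoc at 48.7 CPM (8.15 to 18) and Vegfa at 68.8 CPM (26.1 to 34.2). Among immune and interferon genes it held Cd274 at 55.5 CPM (19.4 to 29), Csf1 at 56 CPM (35.9 to 40.1), Tap1 at 3.15 CPM (0.678 to 1.16) and Ifi44 at 1.17 CPM (0.0797 to 0.241). Adhesion, matrix and other genes were Cdh1 at 15.2 CPM (3.81 to 6.94), Cav1 at 479 CPM (276 to 298), Fbln5 at 56.4 CPM (27.7 to 28.7), Zeb1 at 1.61 CPM (0.159 to 0.365) and Ptgds at 440 CPM (183 to 227). The low values of this library were Trp53 at 184 CPM (234 to 247), Cxcl10 at 22.5 CPM (45.4 to 50.8) and Mest at 36.7 CPM (92.9 to 112).

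In D4M replicate 1, genes of the melanocyte and glial programmes stood above the other 4 libraries. Tyr was at 0.806 CPM (0 to 0.172), Tyrp1 at 27 CPM (0 to 2.85), Dct at 10.7 CPM (0.0906 to 1.19), Pmel at 8.78 CPM (0.267 to 0.724), Mlana at 3.26 CPM (0 to 0.128) and Slc45a2 at 0.965 CPM (0 to 0.0852). Mc1r was at 0.829 CPM (0 to 0.132), Sox10 at 2.07 CPM (0 to 0.511), Mbp at 4.32 CPM (0 to 0.133) and Unc5c at 0.827 CPM (0 to 0.0852).

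The other values were scattered. D4M replicate 2 was high in Twist1 (99.2 CPM, 70.6 to 78.6) and Pdgfra (78.4 CPM, 50.3 to 57.3). D4M replicate 3 was high in Itga3 (685 CPM, 469 to 530) and low in Vcam1 (91.7 CPM, 127 to 137), replicate 4 was low in Itga9 (0.533 CPM, 0.757 to 0.844), and replicate 5 was high in Cdh2 (415 CPM, 348 to 366) and Mki67 (423 CPM, 341 to 364). HCmel12 replicate 3 was high in Mki67 (396 CPM, 284 to 294) and replicate 2 in Sox11 (79.8 CPM, 63.4 to 67.8), and replicate 1 was low in Cd68 (1.93 CPM, 3.03 to 3.34).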

How the results depend on the processing

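The counts of 5617 genes higher and 5437 lower in D4M and of 5404 with at least a 2-fold difference stayed within 1.5 times under every alternative run. Leaving out each library in turn gave 5573 to 5731 higher, 5299 to 5433 lower and 5456 to 5559 past 2-fold. Without a filter on low counts 7235 were higher, 6253 lower and 7898 past 2-fold. The edgeR quasi-likelihood test called 5603 and 5501, DESeq2 5658 and 5441, and log2(TPM + 1) 4685 and 5557. On the log2(TPM + 1) scale 3607 were past 2-fold, the lowest count over the alternatives. The scaling moved the split of calls: with library sizes alone 4487 were higher and 6830 lower. Replicate numbers did not pair the samples, as the deviations of same-numbered libraries correlated with r of -0.0874 to 0.00822 and 0 of 5 D4M libraries correlated best with their own number, and with the replicate block 5627 were higher, 5440 lower and 5424 past 2-fold. Of 253 tested genes under the naming rule, 241 kept their call under every alternative in which they were tested, and none changed direction while called. The call of Ddit3 was lost without HCmel12 replicate 4, and those of Cdk4, Mmp2, Itga4, Mt2, Fn1 and mt-Cytb changed with library sizes alone. Of 93 counts and medians of the lists, 21 moved with log2(TPM + 1), 14 without a filter, 9 with log2(TPM + 0.1) and 0 to 5 under the other alternatives. The receptor tyrosine kinase median of 2.22 was 1.10 with log2(TPM + 1) and 1.25 without a filter, that of matricellular genes went from 3.47 to 1.88 without a filter, and that of Schwann and crest markers from -0.14 to 0.15. Low genes are limited by the floor of 3 counts.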

Other observations

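Abundance ranks within each line, by TPM among nuclear protein-coding genes, gave a further view of the pair, for genes chosen after their values were seen. Vim, the intermediate filament of mesenchymal cells, ranked 3 in D4M (6702 TPM) and 140 in HCmel12. S100a4, a calcium-binding protein of motile cells, ranked 8 in D4M (4637 TPM) and 9641 in HCmel12 (3.16 TPM). Gstp1, a glutathione transferase, ranked 4 in HCmel12 (5649 TPM) and 91 in D4M (1309 TPM). Igfbp3 ranked 22 in D4M (3023 ± 359 TPM, n = 4), and Dct and Pmel ranked 35 and 226 in HCmel12.

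HCmel12 replicate 4 was the lowest library of its line in 35 of 55 genes of S phase and mitosis, with a median log2 difference of -0.29 from the other 4, and in 24 of 33 Hippo genes (-0.23). Over all tested genes above 5 CPM it was the lowest in 3961 of 10072, with a median of -0.05.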
